A study of Mus musculus with 79 samples.

Results

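Whole mouse dorsal root ganglia taken 24 h after crush of both sciatic nerves are described here across all genes, with naive ganglia as the comparison. The members were every library labelled Input at 24 h (5 libraries) and every library labelled Input in naive mice (7 libraries), which makes 12 of the 79 libraries of the series and 12 of its 40 Input libraries. Input is total RNA of the L4-5 ganglia, before any pulldown. All mice, naive mice included, were of the BAC-TRAP BR145-GFP line, in which a bacterial artificial chromosome transgene tags ribosomes with GFP, and IP libraries hold the RNA captured on beads by chicken anti-GFP. The promoter and cells that drive the transgene, and the strain, sex and age of the mice, are not stated in the labels. The series also has Input libraries at 1 h, 12 h, 48 h, 72 h and 7 d after crush, of which the 12 h (6 libraries) and 72 h (7 libraries) groups are used for direct comparisons. The labels do not say that replicates came from separate mice, so p-values measure only the spread between these libraries.

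Dorsal root ganglia hold the cell bodies of the sensory neurons, whose axons run in the sciatic nerve, together with satellite glia, Schwann cells, fibroblasts, macrophages and vessels. A crush cuts the axons but leaves the nerve sheath in continuity, and the neurons can regrow. Injured sensory neurons are known to switch on a set of transcription factors, growth-associated proteins and neuropeptides while turning down parts of their resting channel and receptor repertoire, and ganglion glia and macrophages respond later. Atf3, Gpr151 and Npy are known markers of injured sensory neurons. Input holds the RNA of all these cells mixed together.

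Total counts were between 12049646 and 21860886 in the 24 h libraries and between 9869384 and 16912222 in the naive libraries. Rn45s, the ribosomal RNA precursor, and Lars2, the gene of mitochondrial leucyl-tRNA synthetase, to which ribosomal RNA reads can be assigned, together took between 2.88% and 16.5% of the counts at 24 h and between 4.70% and 23.6% in naive libraries (called the ribosomal share here; how much of the Lars2 count is ribosomal was not tested). 24 h replicate 1 (2.88%) and naive replicates 1 (4.70%) and 3 (4.80%) lay apart from the rest of their groups on the first principal component of the Input libraries, which held 21.9% of the variance. No pair of libraries within a group was identical or within counting noise of another. On average over the naive libraries, all 20 pan-neuronal genes and 21 of 22 satellite glia markers were above 1 CPM (CPM, read counts scaled to a common library size with TMM factors, is the unit of all levels below). The labelled tissue thus has its defining markers.

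Of 16217 genes tested by edgeR's quasi-likelihood test with Benjamini-Hochberg adjustment, calls at 0.05, 1178 (7.26%) rose and 696 (4.29%) fell at 24 h, together 1874 (11.6%). The counts of gene lists below are to be read beside these shares of all genes. The median log2 change of all genes tested was -0.02. Large changes were mostly rises: 329 genes rose and 199 fell by more than 2-fold, and 144 rose and 19 fell by more than 4-fold. The 24 h and naive libraries did not overlap in CPM for 649 genes that were higher (4.00%) and 245 that were lower (1.51%) at 24 h, 5.51% in all. With only the 12 libraries of these groups in the fit, which leaves fewer samples to estimate the spread, 752 genes rose and 453 fell, and without the 3 libraries of low ribosomal share 1304 rose and 780 fell. With the levels of the macrophage and fibroblast marker lists as covariates, an alternative added after seeing the data, 662 rose and 393 fell. The summed level of the fibroblast list was 1124 to 1262 CPM at 24 h and 1317 to 2515 CPM in naive ganglia. The covariates thus differ with the groups, and this fit cannot cleanly separate the 24 h change from those levels. Why a gene loses its call in this fit, here and below, was not tested.

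**Figure D1:**
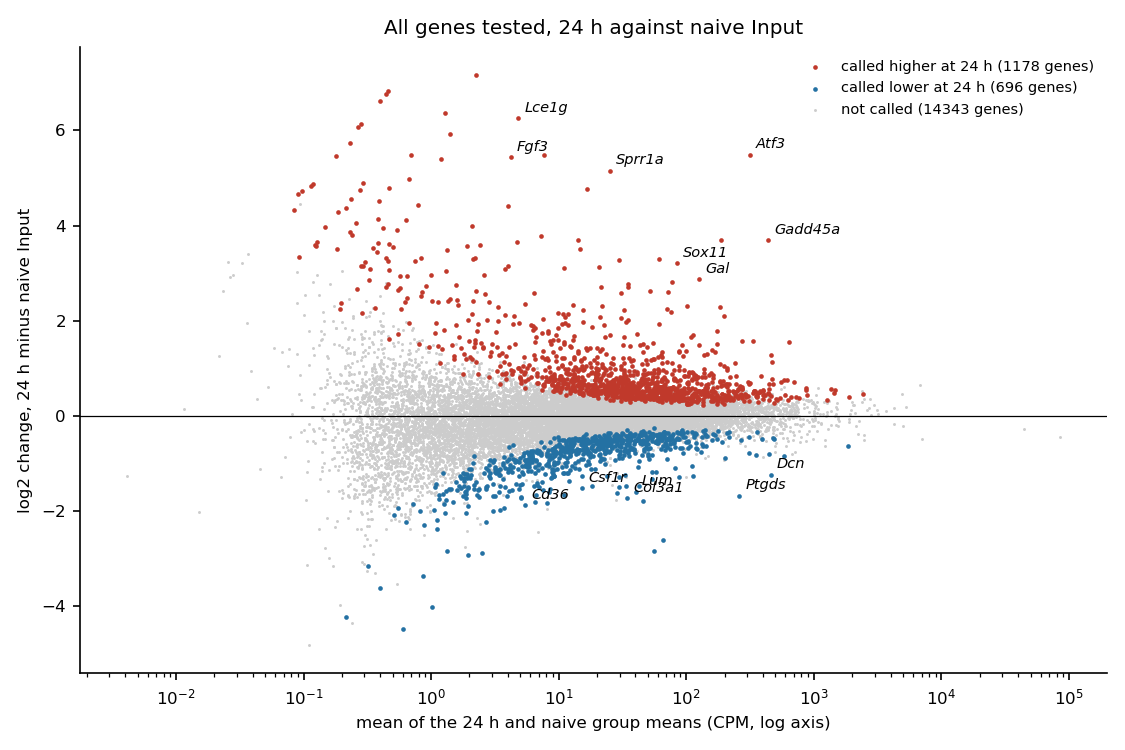
Each point is 1 of the 16217 genes tested; the x axis is the mean of the group means (CPM, log axis) and the y axis the log2 change, 24 h minus naive Input. The 1178 genes called higher reach further from 0 than the 696 called lower, with Atf3 at 5.49 and Gadd45a at 3.70 among the genes of high level.

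The labelled injury was visible in every 24 h library. Atf3, a stress-induced transcription factor and a standard marker of axotomised sensory neurons, was at 794, 574, 607, 522 and 594 CPM at 24 h, against a lowest, median and highest of 8.70, 13.5 and 19.1 CPM in naive ganglia. Its log2 change was 5.49 ± 0.17 (SE), a 44.9-fold rise (edgeR adjusted p = 2.72e-27). Gpr151, an orphan receptor of injured neurons, was at 21.1, 12.5, 13.8, 11.8 and 15.97 CPM at 24 h, against 0, 0 and 1.17 CPM (lowest, median, highest) in naive ganglia. Npy, which encodes neuropeptide Y, was at 25.5, 28.3, 24.1, 35.2 and 46.8 CPM at 24 h, against 0.290, 1.55 and 1.81 CPM in naive ganglia, a log2 change of 4.76 ± 0.40. No 24 h library overlapped a naive library for any of the 3 markers.

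Of 18 tested transcription factors of the injury list, 11 rose and 0 fell, with a median log2 change of 0.86. Sox11, a developmental factor that promotes axon growth, was at 112, 126, 227, 125 and 168 CPM at 24 h, against 13.7, 16.1 and 20.7 CPM in naive ganglia (log2 change 3.21 ± 0.19, edgeR adjusted p = 3.09e-17). Jun, the AP-1 subunit that partners Atf3, was at 582, 461, 539, 382 and 521 CPM at 24 h, against 144, 165 and 191 CPM in naive ganglia, a 2.98-fold rise. The groups did not overlap for either gene. Arid5a, an RNA-binding protein that stabilises Il6 mRNA, rose by 2.22 ± 0.19 on the log2 scale. Nfil3, a bZIP repressor, rose by 1.97 ± 0.21, and Cebpd, a factor of the acute phase response, by 1.34 ± 0.13. Smad1, a mediator of BMP signals, rose by 0.90 ± 0.10, the zinc finger factor Klf6 by 0.98 ± 0.11 and the growth regulator Myc by 1.01 ± 0.15. Stat3, which is controlled largely by phosphorylation, averaged 331 ± 25.4 CPM at 24 h and 279 ± 36.7 CPM in naive ganglia (SD, n = 5 and 7) and did not pass (log2 change 0.25, edgeR adjusted p = 0.139). Stat3 passed with the macrophage and fibroblast covariates (edgeR adjusted p = 0.0251) and with the ribosomal share as a covariate (0.0151). The count of risers in this list was between 11 and 13 under the alternatives run.

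**Figure D2:**
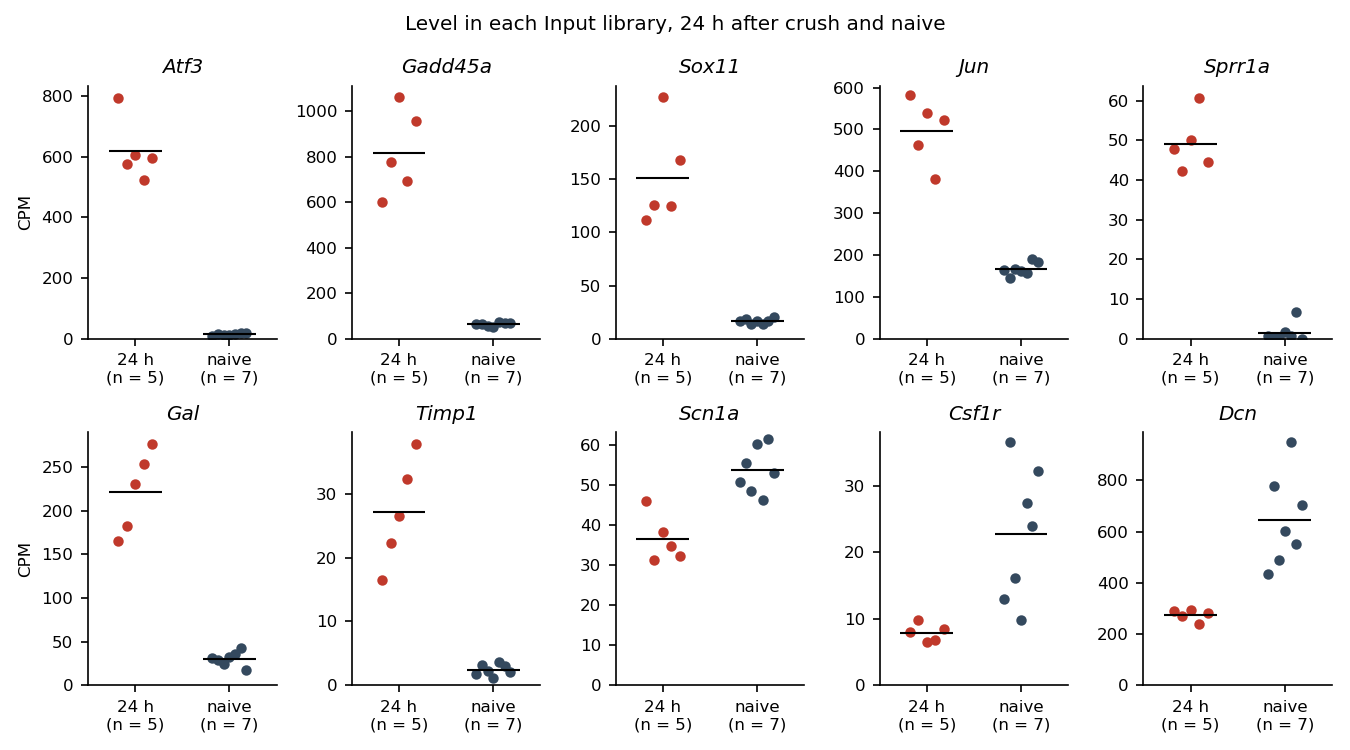
CPM of 10 genes in each Input library, 24 h on the left (n = 5) and naive on the right (n = 7); each point is a library and the line is the group mean, on axes that start at 0. For all 10 genes except Scn1a, whose highest 24 h value (46.2 CPM) lies close below its lowest naive value (46.4 CPM), and Csf1r (9.72 and 9.79 CPM), a gap separates the groups.

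The promoters of 4 genes, picked after their values were seen, are shown because Atf3 and Jun form AP-1 dimers and Sprr1a, Plaur and Procr are among the 15 genes of largest rise. Sprr1a, Plaur and Procr all belong to the 4 of those 15 that hold an AP-1 match, so they do not represent the 15. Sequences are the 250 bases before the annotated start from RefSeq's GRCm38.p6 annotation, given 5′ to 3′ on the gene's strand, with matches to the AP-1 motif TGANTCA (the same on both strands) in capitals. The Atf3 window is chr1:191183334-191183583 on the minus strand, the Sprr1a window chr3:92485882-92486131 on the minus strand, the Plaur window chr7:24462233-24462482 on the plus strand and the Procr window chr2:155750967-155751216 on the plus strand.
Atf3: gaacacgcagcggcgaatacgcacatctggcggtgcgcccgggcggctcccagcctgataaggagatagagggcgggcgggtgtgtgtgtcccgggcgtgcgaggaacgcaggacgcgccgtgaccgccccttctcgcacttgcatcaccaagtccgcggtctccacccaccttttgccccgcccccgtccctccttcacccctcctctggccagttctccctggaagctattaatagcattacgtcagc
Sprr1a: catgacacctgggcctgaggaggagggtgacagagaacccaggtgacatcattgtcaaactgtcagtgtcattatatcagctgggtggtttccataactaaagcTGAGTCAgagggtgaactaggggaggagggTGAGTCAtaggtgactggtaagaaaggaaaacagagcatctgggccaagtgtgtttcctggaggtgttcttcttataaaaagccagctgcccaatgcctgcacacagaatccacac
Plaur: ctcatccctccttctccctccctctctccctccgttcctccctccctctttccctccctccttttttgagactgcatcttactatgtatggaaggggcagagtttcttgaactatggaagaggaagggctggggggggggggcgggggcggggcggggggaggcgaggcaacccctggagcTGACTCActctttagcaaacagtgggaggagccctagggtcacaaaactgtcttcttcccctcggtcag
Procr: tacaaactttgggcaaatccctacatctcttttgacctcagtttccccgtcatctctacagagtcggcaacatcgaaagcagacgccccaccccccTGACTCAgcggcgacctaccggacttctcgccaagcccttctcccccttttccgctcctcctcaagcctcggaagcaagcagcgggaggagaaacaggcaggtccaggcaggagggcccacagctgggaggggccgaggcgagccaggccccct

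The Sprr1a window held 2 matches, at -146 and -116 from the start, the Plaur window 1 at -69 and the Procr window 1 at -154; the Atf3 window held none of these letters. Of the 15 genes of largest rise, 14 had a promoter in the table and 4 of them held a match, the other one being E230016M11Rik. The motif was in 5.21% of the promoters of genes that rose, in 5.3% of those of genes that fell, in 4.94% of those of all genes tested and in 6.75% of all promoters in the table. The cyclic AMP response element TGACGTCA was in 3.09%, 2.12%, 2.42% and 1.55% of the same sets, and the STAT motif TTCCNGGAA in 1.24%, 0.455%, 0.991% and 0.913%, both searched on both strands. The E-box CACGTG was in 7.41%, 7.27%, 7.84% and 6.02% of them. A match describes letters in a window and no binding was measured.

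Of the 36 gene lists, regeneration-associated effectors had the largest share of risers: 31 of 42 tested genes rose, 0 fell, and the median log2 change was 1.44. The lists were written from general knowledge, with earlier results of these data known. The choice of members therefore partly set this rank and the counts of the other injury lists. Sprr1a, a small proline-rich protein of cornified cells that injured neurons express in growing axons, was at 47.7, 42.3, 50.1, 60.6 and 44.6 CPM at 24 h, against 0, 0.539 and 6.80 CPM in naive ganglia (log2 change 5.16 ± 0.50, edgeR adjusted p = 1.02e-09). Gadd45a, which acts in DNA damage and repair signalling, was at 601, 778, 1060.0, 691 and 957 CPM at 24 h, against 52.1, 64.5 and 73.8 CPM in naive ganglia, a 13.0-fold rise. Neither gene's groups overlapped. Flrt3, a leucine-rich adhesion protein, rose by 3.31 ± 0.19 on the log2 scale and Plaur, the urokinase receptor, by 3.27 ± 0.19. Fst (follistatin, which binds activins) rose by 3.13 ± 0.24, Sema6a (a semaphorin) by 2.71 ± 0.19, Stmn4 (a stathmin that binds tubulin) by 2.60 ± 0.16 and Tnfrsf12a (the Tweak receptor) by 2.57 ± 0.14. Ecel1, a membrane peptidase of injured neurons, was at 3.69, 4.08, 2.94, 4.76 and 4.46 CPM at 24 h, against 0.0580, 0.215 and 1.85 CPM in naive ganglia.

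Itga7, an integrin subunit for laminin, averaged 174 ± 37.1 CPM at 24 h and 53.9 ± 8.92 CPM in naive ganglia, a log2 change of 1.69 ± 0.16. Cdkn1a, a cell cycle inhibitor, rose by 1.58 ± 0.15, and Hspb1, a small heat shock protein, by 1.29 ± 0.15. Gap43, the growth cone protein used as a regeneration marker, was at 459, 528, 706, 632 and 615 CPM at 24 h, against 299, 357 and 454 CPM in naive ganglia, a 1.59-fold rise (edgeR adjusted p = 2.29e-04). Stmn2, another stathmin, rose 1.38-fold. The groups did not overlap for Gap43 or Stmn2, although the gap for Gap43 was narrow (459 against 454 CPM), and with the macrophage and fibroblast covariates neither passed (edgeR adjusted p = 0.0643 and 0.105). Of 22 tubulins and neurofilaments 3 rose, among them Tubb6 (1.65 ± 0.21), and 0 fell. Of 29 axon guidance and adhesion genes 6 rose, with Plxna4, a semaphorin receptor, at 1.20 ± 0.15, and 1 fell. Cckbr, the cholecystokinin B receptor, had 339 counts at 24 h and 2 in naive ganglia, a ratio of 191.6 after scaling with an exact 95% interval of 52.6 to 1589, which covers counting error only.

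**Figure D3:**
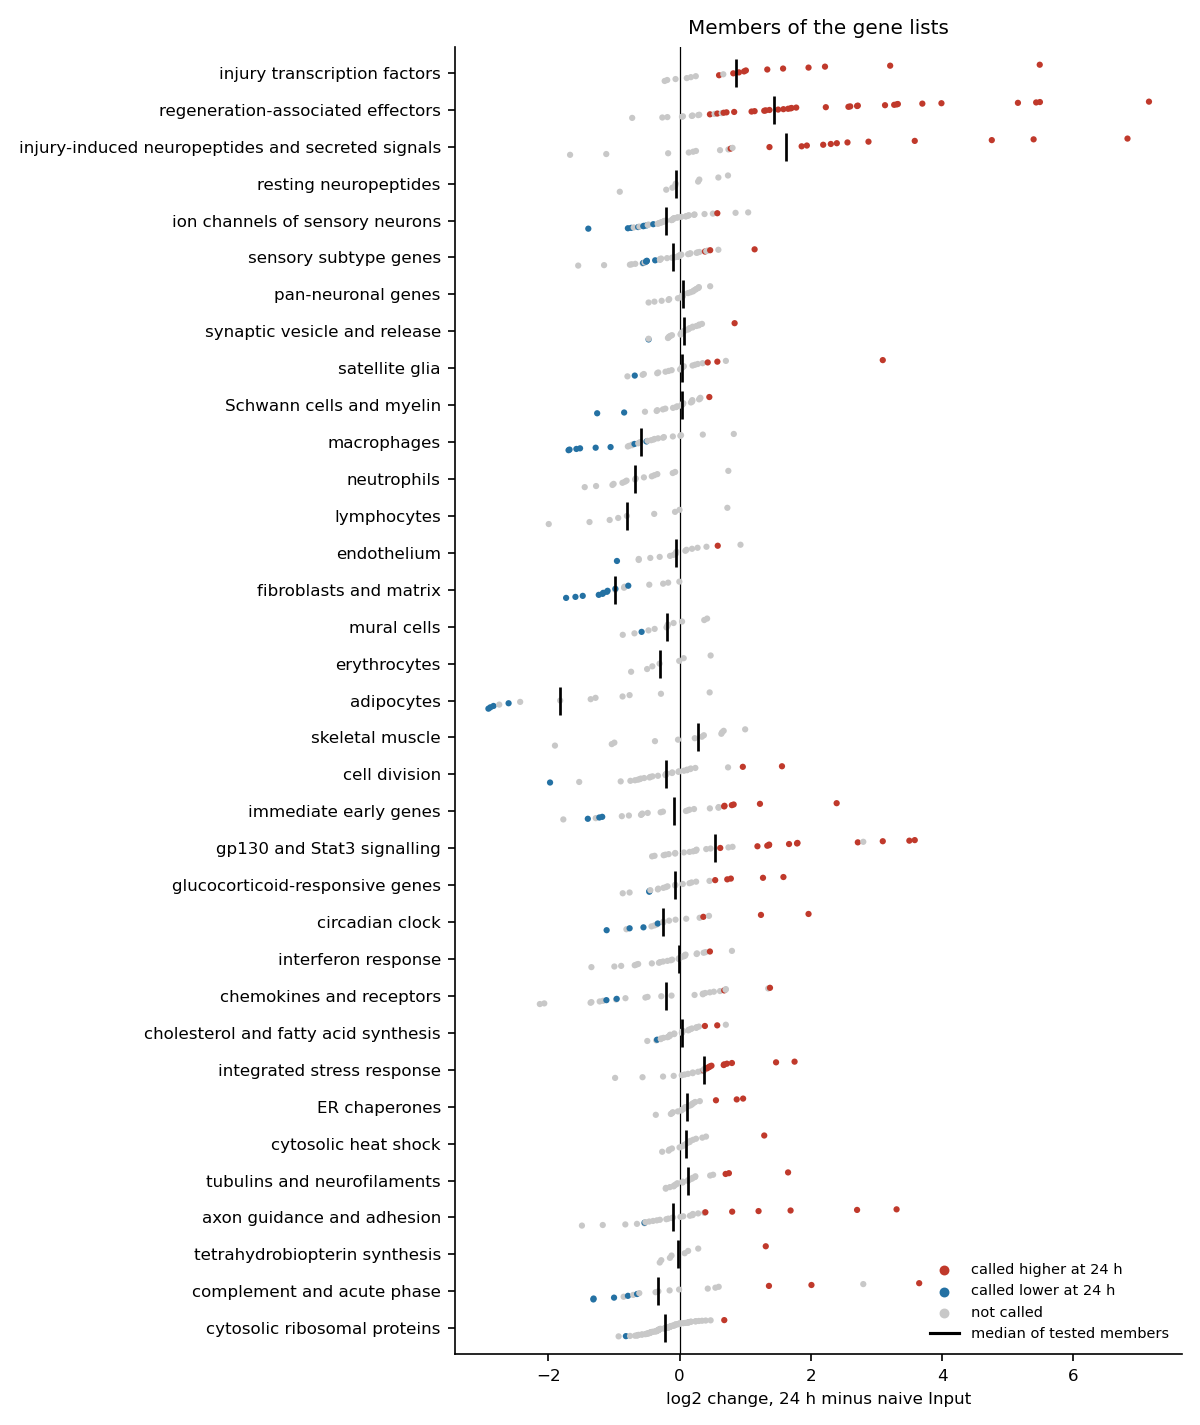
Log2 change, 24 h minus naive Input, of the tested members of each gene list; points are genes, red where called higher, blue where called lower and grey where not called, and the bar is the list's median. The injury transcription factors, the effectors and the neuropeptides and secreted signals have medians of 0.86, 1.44 and 1.61, and the fibroblast and adipocyte lists medians of -0.98 and -1.82.

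Of 22 tested injury-induced neuropeptides and secreted signals, 13 rose and 0 fell, with a median log2 change of 1.61. Gal, which encodes the neuropeptide galanin, was at 166, 183, 231, 254 and 277 CPM at 24 h, against 17.6, 31.5 and 42.3 CPM in naive ganglia (log2 change 2.88 ± 0.17, edgeR adjusted p = 2.50e-17). Adcyap1, which encodes the peptide PACAP, was at 194, 149, 168, 149 and 191 CPM at 24 h, against 24.2, 35.6 and 41.7 CPM in naive ganglia. Both were higher in every 24 h library than in any naive library. Bdnf, a neurotrophin, rose by 1.94 ± 0.13 and Vgf, a neurotrophin-induced secreted protein, by 2.19 ± 0.16. Crh, the corticotropin-releasing hormone, was at 2.08, 1.43, 2.51, 3.05 and 2.60 CPM at 24 h, against 0, 0 and 0.174 CPM in naive ganglia. Grp, the gastrin-releasing peptide, had 69 counts over the 24 h libraries and 0 over the naive libraries, at least 26.0-fold higher against a floor of 3 counts summed over the naive group; its 24 h levels ran between 0.0866 and 1.36 CPM.

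Fgf3, a fibroblast growth factor, was at 11.8, 9.07, 7.62, 4.91 and 7.61 CPM at 24 h, against 0, 0.108 and 0.721 CPM in naive ganglia. Csf1, which injured neurons use to signal to microglia and macrophages, rose by 1.86 ± 0.19 on the log2 scale, with 44.8 CPM in 24 h replicate 1 and between 21.7 and 28.5 CPM in the other 24 h libraries. Areg, a ligand of the EGF receptor, was at 4.58, 7.39, 7.01, 8.63 and 10.4 CPM at 24 h, against 0, 0.359 and 0.927 CPM in naive ganglia. Nts, which encodes neurotensin, rose by 1.37 ± 0.31 with overlapping groups, since naive replicate 6 had 36.2 CPM, and it did not pass when only the 12 libraries were fitted (edgeR adjusted p = 0.0684). Ccl7, a monocyte chemokine, rose by 1.38 ± 0.26 with overlapping groups. None of the 9 resting neuropeptides tested passed in either direction by edgeR, DESeq2 or limma voom, with 4 higher and 0 lower at an unadjusted p under 0.05, and 1 rose by edgeR with only the 12 libraries fitted. Calca, which encodes CGRP, averaged 1161 ± 184 CPM at 24 h and 943 ± 176 CPM in naive ganglia.

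Of 30 genes of gp130 and Stat3 signalling, the pathway of interleukin 6 family cytokines, 12 rose and 0 fell. Il6 itself was at 3.86, 3.76, 5.54, 3.50 and 5.85 CPM at 24 h, against 0, 0.301 and 0.824 CPM in naive ganglia (log2 change 3.58 ± 0.37, edgeR adjusted p = 4.81e-10). Socs3, the feedback inhibitor of the pathway, was at 59.8, 42.1, 27.4, 30.6 and 27.1 CPM at 24 h, against 2.58, 5.66 and 7.36 CPM in naive ganglia. Timp1, an inhibitor of matrix metalloproteinases, was at 16.4, 22.2, 26.6, 32.4 and 37.8 CPM at 24 h, against 1.06, 2.26 and 3.59 CPM in naive ganglia. All 3 genes had groups that did not overlap. Bcl3, an atypical inhibitor of NF-kappaB, rose by 1.67 ± 0.18, Serpina3n, an acute phase protease inhibitor, by 1.36 ± 0.24 (not passing with the macrophage and fibroblast covariates, edgeR adjusted p = 0.0587) and Lrg1, a secreted acute phase glycoprotein, by 1.80 ± 0.35. Saa1, an acute phase serum amyloid, rose by 3.65 ± 0.37; its reads can be shared with close copies of the gene, and the labels do not say how multi-mapping reads were counted. Gfap, an intermediate filament that satellite glia switch on near injured neurons, was at 11.8, 6.61, 6.92, 4.02 and 4.55 CPM at 24 h, against 0, 0.825 and 1.71 CPM in naive ganglia.

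Of 25 genes of the integrated stress response, which couples amino acid and folding stress to translation through the factor Atf4, 12 rose and 0 fell. Trib3, a pseudokinase target of Atf4, averaged 12.7 ± 2.70 CPM at 24 h and 3.71 ± 1.18 CPM in naive ganglia (log2 change 1.75 ± 0.24, edgeR adjusted p = 3.59e-07). Chac1, which breaks down glutathione, rose by 1.47 ± 0.23, Asns (asparagine synthetase) by 0.72 ± 0.15, Mthfd2 (mitochondrial folate metabolism) by 0.67 ± 0.13 and Sars (seryl-tRNA synthetase) by 0.42 ± 0.08. Atf4 mRNA averaged 316 ± 56.0 CPM at 24 h and 245 ± 36.8 CPM in naive ganglia and did not pass (edgeR adjusted p = 0.0874), though it did without 24 h replicate 1 (edgeR adjusted p = 0.0300) and with the ribosomal share as a covariate (8.4e-04). With the macrophage and fibroblast levels as covariates 4 of the 25 genes rose, among them Trib3 but not Chac1, Asns, Mthfd2 or Sars (edgeR adjusted p between 0.0519 and 0.440). Of 20 chaperones of the endoplasmic reticulum 3 rose: Xbp1, a transcription factor of the unfolded protein response, by 0.97 ± 0.16, the chaperone gene Hspa5 by 0.55 ± 0.14, and Sdf2l1. Hspa5 did not pass without 24 h replicate 1 (edgeR adjusted p = 0.0716), and with the covariates neither Xbp1 nor Hspa5 passed (0.129 and 0.127). Of 16 cytosolic heat shock genes 1 rose.

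The neuronal lists differed in their share of calls at 24 h. Of ion channels 2.44% rose and 19.5% fell, of sensory subtype genes 7.89% and 13.2%, and of all genes tested 7.26% and 4.29%. Of 20 pan-neuronal genes 0 passed in either direction by edgeR, 3 higher and 2 lower had an unadjusted p under 0.05, DESeq2 called 1 lower and limma voom 0, and without naive replicate 3 edgeR called 1 higher and 2 lower. With the ribosomal share as a covariate edgeR called 3 higher and 1 lower, and without the 3 libraries of low ribosomal share 3 higher. Their summed level was between 26423 and 28407 CPM at 24 h and between 21830 and 27389 CPM in naive ganglia. Uchl1, an abundant neuronal deubiquitinase, averaged 4028 ± 699 CPM at 24 h and 4531 ± 671 CPM in naive ganglia. Rbfox3, the gene of the neuronal nuclear antigen NeuN, averaged 239 ± 42.4 CPM at 24 h and 288 ± 33.0 CPM in naive ganglia with an edgeR adjusted p of 0.0781, and it passed when 24 h replicate 3 (0.0288) or 5 (0.0465) or naive replicate 3 (0.0400) or 5 (0.0480) was left out. Of 41 ion channels of sensory neurons 1 rose and 8 fell, with a median log2 change of -0.20; the count of fallers was 3 without 24 h replicate 2 or 4, 4 without replicate 3, and 5 without replicate 1 or naive replicate 4, and 3 with the macrophage and fibroblast covariates, under which neither Scn1a nor Scn9a passed (edgeR adjusted p = 0.306 and 0.511). Scn1a, a voltage-gated sodium channel of large sensory neurons, was at 46.2, 31.2, 38.3, 34.8 and 32.4 CPM at 24 h, against 46.4, 53.0 and 61.7 CPM in naive ganglia (log2 change -0.55 ± 0.15, edgeR adjusted p = 0.0118). Scn9a, the pain-related sodium channel Nav1.7, averaged 98.2 ± 5.65 CPM at 24 h and 130 ± 16.02 CPM in naive ganglia (edgeR adjusted p = 0.0329), without overlap, but its call was lost when any of 24 h replicates 1, 2, 4 or 5 or naive replicates 4 or 7 was left out (edgeR adjusted p between 0.0592 and 0.0771).

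Of 38 sensory subtype genes 3 rose and 5 fell. Gfra1, a receptor subunit for the neurotrophic factor GDNF, averaged 96.7 ± 19.2 CPM at 24 h and 43.9 ± 7.54 CPM in naive ganglia (log2 change 1.14 ± 0.14). Gfra2, the subunit for neurturin, averaged 35.4 ± 3.38 CPM at 24 h and 50.04 ± 6.22 CPM in naive ganglia (log2 change -0.50 ± 0.15, edgeR adjusted p = 0.0205; 0.0657 without 24 h replicate 4). The groups did not overlap for either receptor gene. Isl1, a transcription factor that specifies sensory neurons, fell by 0.37 ± 0.09. In the list, 8 genes fell with the ribosomal share as a covariate, 1 gene rose without 24 h replicate 1 or 2 or naive replicate 6 or 7, and 2 fell without 24 h replicate 4. Gfra2 also missed the threshold without the 3 libraries of low ribosomal share (edgeR adjusted p = 0.0765). Of 24 genes of synaptic vesicles and release 1 rose and 1 fell (4.17% each, against 7.26% and 4.29% of all genes tested). Without 24 h replicate 2 none fell, and without naive replicate 3 both counts were 2.

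Several markers of fibroblasts and macrophages fell at 24 h. In whole ganglia, fewer cells of a type and less RNA per cell cannot be told apart. Of 17 fibroblast and matrix genes 10 fell and 0 rose, with a median log2 change of -0.98 and a summed level between 1124 and 1262 CPM at 24 h, against 1317 to 2515 CPM in naive ganglia. Dcn, the matrix proteoglycan decorin, was at 288, 270, 293, 239 and 280 CPM at 24 h, against 433, 603 and 951 CPM in naive ganglia (log2 change -1.23 ± 0.17, edgeR adjusted p = 3.98e-07). Lum (lumican) was at 17.8, 21.0, 23.8, 21.1 and 16.2 CPM at 24 h, against 41.9, 52.9 and 88.1 CPM in naive ganglia. The groups did not overlap for Dcn or Lum. The collagen genes Col3a1 and Col1a1 fell by 1.73 ± 0.29 and 1.48 ± 0.27.

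Of 27 macrophage genes 8 fell and 0 rose, with a median log2 change of -0.60; all 27 were above 1 CPM on average in naive ganglia. Csf1r, the receptor that macrophages need to survive, was at 8.02, 9.72, 6.41, 6.77 and 8.45 CPM at 24 h, against 9.79, 23.9 and 36.5 CPM in naive ganglia (log2 change -1.52 ± 0.26, edgeR adjusted p = 2.76e-05). Trem2, a lipid receptor, fell by 1.68 ± 0.37, Emr1, the gene of the F4/80 antigen, by 1.69 ± 0.39, the scavenger receptor gene Cd163 by 1.57 ± 0.38 and H2-Aa, an MHC class II chain, by 1.28 ± 0.29. The summed level of the list was between 558 and 786 CPM at 24 h and between 702 and 1582 CPM in naive ganglia, so the groups overlapped. By limma voom 6 of the 27 fell, and neither Emr1 nor Cd163 passed (adjusted p = 0.0555 and 0.0870). None of 16 neutrophil genes passed by edgeR, DESeq2 or limma voom, with 0 at an unadjusted p under 0.05, and of 9 lymphocyte genes edgeR called 0, with 2 lower at an unadjusted p under 0.05 and 1 by DESeq2. The covariates are built from these lists, so the lists' own counts in that fit (3 macrophage and 2 fibroblast genes fell) are not read further. In that fit 28 of the 42 effectors and 11 of the 18 injury transcription factors rose.

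Of 13 adipocyte genes 4 fell, with a median of -1.82 and a summed level between 304 and 406 CPM at 24 h and between 281 and 1731 CPM in naive ganglia; none passed without naive replicate 2 or with the covariates, 1 without 24 h replicate 2, 3 or 4, 2 without 24 h replicate 1, and 7 without naive replicate 1. Adipoq, which encodes the fat hormone adiponectin, averaged 0.614 ± 0.420 CPM at 24 h and 4.37 ± 4.61 CPM in naive ganglia (edgeR adjusted p = 0.0147, and 0.0504 without naive replicate 2). Of 22 Schwann cell and myelin genes 1 rose and 2 fell. Without single libraries 0 to 2 of these genes rose and 1 to 3 fell. Of 22 satellite glia genes 3 rose, Gfap among them, and 1 fell: Cadm2, an adhesion protein, by 0.68 ± 0.15. Without 24 h replicate 1, 1 satellite glia gene rose and 3 fell, and without naive replicate 6, 1 rose and 2 fell. Fabp7, a fatty acid binding protein and satellite glia marker, averaged 723 ± 234 CPM at 24 h and 615 ± 266 CPM in naive ganglia. Of 30 cell division genes 2 (6.67%) rose and 1 (3.33%) fell, or 2 without 24 h replicate 4. Of all genes tested 7.26% rose and 4.29% fell. The Schwann cell list had 4.55% risers and 9.09% fallers, and the satellite glia list 13.6% and 4.55%. Prc1, which bundles spindle microtubules, rose by 1.56 ± 0.21, and Top2a, a topoisomerase of dividing cells, fell by 1.98 ± 0.50. Top2a was low, at means of 1.33 CPM in 24 h Input and 5.21 CPM in naive Input (scaled over all 79 libraries). With the covariates neither Cadm2 nor Top2a passed (edgeR adjusted p = 0.195 and 0.413), and no gene of the satellite glia, Schwann cell and cell division lists fell.

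Besides the lists, the largest rises named by the rule included genes with other known roles. Lce1g, a cornified envelope protein of skin, was at 5.81, 8.68, 8.66, 10.1 and 14.4 CPM at 24 h, against 0, 0 and 0.348 CPM in naive ganglia; its family has close copies. Steap1, a member of the STEAP metalloreductase family, rose by 3.79 ± 0.23 on the log2 scale, Procr, the endothelial protein C receptor, by 3.69 ± 0.24 and E230016M11Rik by 3.70 ± 0.15. E230016M11Rik was at 323, 352, 404, 286 and 371 CPM at 24 h, against 18.4, 28.6 and 30.7 CPM in naive ganglia. Among the 15 largest falls were the fatty acid transporter gene Cd36 (-1.87 ± 0.35), Inmt (-1.83 ± 0.37, a methyltransferase), Smoc2 (-1.78 ± 0.24, a matricellular protein) and Ptgds (-1.68 ± 0.42, prostaglandin D synthase). They also included Islr at -1.62, Tmc3 at -1.56, the glial transcription factor Sox8 at -1.55, the lipid transporter Abca9 at -1.50, Crispld2 at -1.49, the glypican Gpc3 at -1.48, Amigo3 at -1.29, the tendon factor Scx at -1.27 and the growth factor binding protein Igfbp6 at -1.26. Col3a1 and H2-Aa complete the 15. The rule that named them took only genes whose 24 h and naive libraries did not overlap. With the macrophage and fibroblast covariates Smoc2, Amigo3, Scx, Igfbp6 and H2-Aa passed, and none of the other falls of the 15 did (edgeR adjusted p between 0.104 and 0.385). H2-Aa and Col3a1 are members of the lists that make up the covariates, so their results in this fit are not read further.

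The lists of glucocorticoid-responsive, circadian clock and immediate early genes held calls in both directions. Of 22 glucocorticoid-responsive genes 5 rose and 2 fell: Mt1 and Mt2, metallothioneins that bind zinc, rose by 0.78 ± 0.20 and 1.27 ± 0.25 with overlapping groups, and Klf9 by 0.54 ± 0.12. The count of fallers among them was 0 without 24 h replicate 3 or 4. Of 18 circadian clock genes 3 rose and 4 fell (2 fell without 24 h replicate 2, 3 or 4 or naive replicate 7), with Dbp, a clock output factor, at 46.1 ± 6.15 CPM at 24 h and 67.5 ± 5.84 CPM in naive ganglia, Hlf lower by a log2 change of -1.11 ± 0.26 and the repressor Bhlhe41 higher by 1.24 ± 0.15. The labels do not give the hour of day at which ganglia were taken. Of 26 immediate early genes 6 rose and 3 fell (1 to 6 fell without single libraries, the most without naive replicate 1), with the risers led by the AP-1 subunit Fosl1, at 4.75 ± 1.00 CPM at 24 h and 0.913 ± 0.735 CPM in naive ganglia. Klf9, Dbp and Hlf did not pass with the macrophage and fibroblast covariates (edgeR adjusted p = 0.173, 0.161 and 0.571), and none of the clock or immediate early genes fell in that fit. Of 27 interferon response genes 1 rose and 0 fell, and of 76 cytosolic ribosomal protein genes 1 rose and 1 fell, or 0 and 8 without naive replicate 3.

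The 72 h libraries were used to check direction, because the labels give no batch. Without the 48 h and 7 d libraries in the fit, 963 genes rose and 567 fell at 24 h. Of the 1178 genes that rose at 24 h, 1113 (94.5%) were also higher at 72 h than in naive ganglia and 790 of them passed there, while 6 of the other 65 passed in the opposite direction. Of the 696 that fell, 604 (86.8%) were also lower at 72 h and 342 of them passed, while 18 of the other 92 passed in the opposite direction. At 72 h 12.2% of all genes tested rose and 11.2% fell against naive, 23.4% in all. The 24 h and 72 h changes share the naive libraries, so these counts describe the direction and are no independent check. Csf1r, Emr1 and Trem2 were among the 18, with log2 changes against naive of -1.52, -1.69 and -1.68 at 24 h and of 0.71, 0.93 and 1.29 at 72 h. In the macrophage list 0 genes rose and 8 fell at 24 h, and 19 rose and 0 fell at 72 h.

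The direct comparison of 72 h with 24 h used no naive library: 998 genes (6.15%) were higher and 960 (5.92%) lower at 72 h. Of the 27 macrophage genes 22 were higher at 72 h than at 24 h and 0 lower, of the 17 fibroblast genes 10 and 0, of the 30 cell division genes 16 and 0, and of the 42 effectors 24 and 0. Gal averaged 1889 ± 259 CPM at 72 h and 222 ± 47.0 CPM at 24 h (SD, n = 7 and 5), a log2 difference of 3.09 (edgeR adjusted p = 5.62e-16). Sprr1a averaged 1013 ± 221 CPM at 72 h and 49.1 ± 7.13 CPM at 24 h. Both genes therefore stood far below their 72 h level at 24 h, and likewise Gap43 was higher at 72 h by 1.52 (log2) and Ecel1 by 3.29. Of the 41 ion channels 2 were higher and 15 lower at 72 h. Areg was lower at 72 h by a log2 difference of -3.16, Aim2, a sensor of cytosolic DNA, by -2.21, Lce1g by -2.11 and Etnppl, a phospholyase, by -1.72.

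The comparison of 24 h with 12 h gave 455 genes (2.81%) higher and 293 (1.81%) lower at 24 h; without 24 h replicate 1, 566 were higher and 447 lower, and without replicate 4 or 5 the totals were 489 and 483. The counts of lower genes without replicates 2, 4 and 5 were 177, 143 and 159. Of the 42 effectors 29 were higher at 24 h than at 12 h and 1 lower, and of the 18 injury transcription factors 4 and 0. Gal averaged 222 ± 47.0 CPM at 24 h and 29.6 ± 3.95 CPM at 12 h (SD, n = 5 and 6), and its change from naive at 12 h was -0.03 (log2). The 24 h and 12 h libraries also differed in a sex marker: Xist, the X-inactivation RNA, was between 1.56 and 23.7 CPM at 24 h and between 0 and 0.0550 CPM at 12 h (edgeR adjusted p = 0.00781), with 0 to 39.1 CPM in naive ganglia (edgeR adjusted p = 0.569 for 24 h and 0.00166 for 12 h, each against naive). With a sex score (Xist minus Ddx3y, log2) as a covariate, added after seeing the data, 259 genes were higher and 101 lower at 24 h than at 12 h, and Gal, Npy, Fgf3, Sprr1a, Aim2, Cd163, Pnpla3 and Ttc38 each passed; list counts were not recomputed in that fit. Npy was higher at 24 h than at 12 h by a log2 difference of 4.24, Fgf3 by 3.47, Sprr1a by 3.15 and Aim2 by 3.07. Atf3, Sox11 and Jun had log2 changes against naive of 4.56, 2.59 and 1.46 at 12 h. The genes lower at 24 h than at 12 h included Cd163 (-1.57, edgeR adjusted p = 0.00934), the lipase gene Pnpla3 (-1.25) and Ttc38 (-1.21). Fibroblast genes were already lower at 12 h, where 10 of 17 fell against naive (of all genes 3.10% rose and 1.89% fell at 12 h, 4.98% in all), and 0 of 17 differed between 24 h and 12 h by edgeR.

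**Figure D4:**
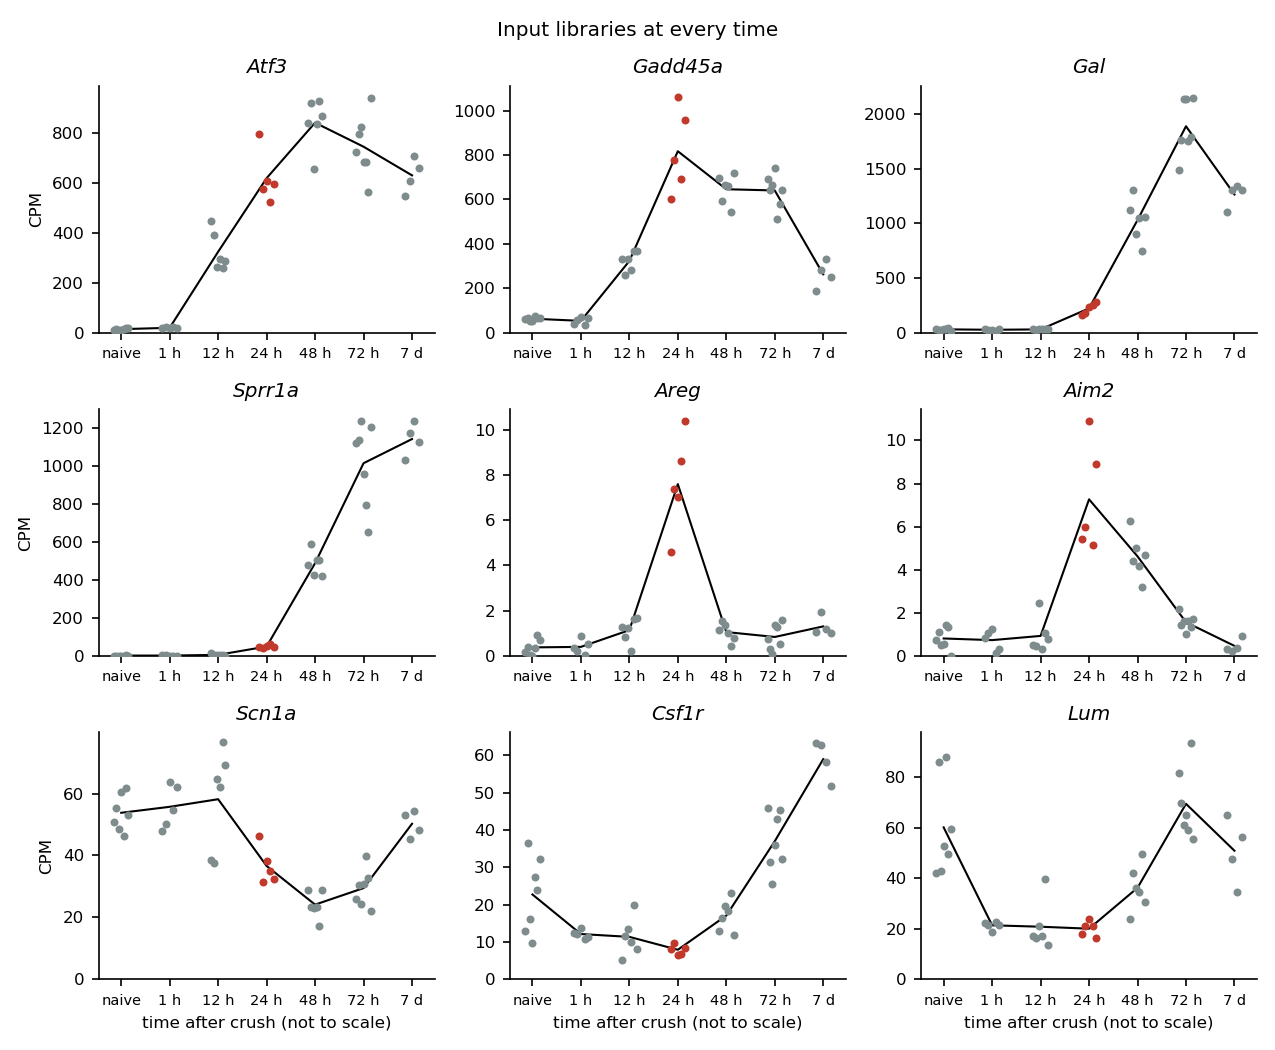
CPM of 9 genes in every Input library by time after crush, in time order and not to scale; points are libraries, the 24 h libraries are red and the line joins the group means. Areg and Aim2 have their highest mean at 24 h (7.60 and 7.27 CPM), Gal and Sprr1a are still far below their 72 h means of 1889 and 1013 CPM, and Csf1r and Lum have their lowest means at 24 h (7.87 and 19.97 CPM).

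The response in pulled-down RNA was set beside that in whole ganglia in a fit of all 79 libraries, with 4 IP libraries at 24 h and 7 IP libraries in naive mice. The ribosomal share was 6.36% to 29.9% in the 24 h IP libraries and 9.86% to 40.2% in the naive IP libraries. The lowest total counts were 6133430 and 4699012. In IP, 956 of 19584 genes (4.88%) rose and 647 (3.30%) fell at 24 h, 8.19% in all. Atf3 rose by 5.12 on the log2 scale in IP, Gadd45a by 4.03, Sprr1a by 4.55, Gal by 2.86, Npy by 4.09 and Gpr151 by 2.49; the Input changes in this fit were 5.49, 3.71, 5.13, 2.89, 4.73 and 5.50. Csf1r and Dcn changed by -1.85 and -1.58 in IP and by -1.52 and -1.23 in Input. Cd163 and H2-Aa changed by -2.86 and -1.77 in IP and by -1.60 and -1.28 in Input. Trem2 and Emr1 changed by -0.86 and 0.78 in IP and by -1.67 and -1.69 in Input. Neither Trem2 nor Emr1 passed in IP (edgeR adjusted p = 0.320 and 0.460). Of the macrophage list 9 genes fell in IP and of the fibroblast list 11. The ion channel list had 2 risers and 0 fallers in IP, with a median of 0.10. The sensory subtype list had 6 and 1, with a median of 0.22. Scn1a, Scn9a, Gfra2 and Isl1 changed by -0.31, 0.10, -0.46 and 0.01 in IP, where none passed. Their Input changes in this fit were -0.55, -0.40, -0.49 and -0.37. The Schwann cell list had 0 risers and 9 fallers in IP, with a median of -0.68.

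A difference between the Input and IP responses was called for 2 of 19584 genes (0.0102%), both higher in Input, and 0 were lower by edgeR, with 1738 genes at an unadjusted p under 0.05. With 4 IP libraries at 24 h, so few calls do not show that the responses were the same. Ucp2, a mitochondrial carrier, was at 113, 77.3, 60.5, 84.4 and 57.1 CPM in 24 h Input, against 43.4, 71.9 and 86.6 CPM (lowest, median, highest) in naive Input, on the scale of the 79 libraries. In IP it was at 34.7, 16.04, 20.03 and 8.76 CPM at 24 h, against 29.8, 71.3 and 134 CPM in naive libraries. These Input groups overlapped, and the IP groups did so in 1 library each. The response was 0.20 in Input and -1.89 in IP, a difference of 2.09 ± 0.39 (edgeR adjusted p = 0.00613). Plekhb1, a pleckstrin homology domain protein, changed by 0.44 in Input and -1.36 in IP, a difference of 1.79 ± 0.33. Without 24 h replicate 2 or 4 of both fractions 0 genes were called, with edgeR adjusted p of 0.104 and 0.130 for Ucp2, and without replicate 1 56 genes were called, 52 higher and 4 lower in Input.

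**Figure D5:**
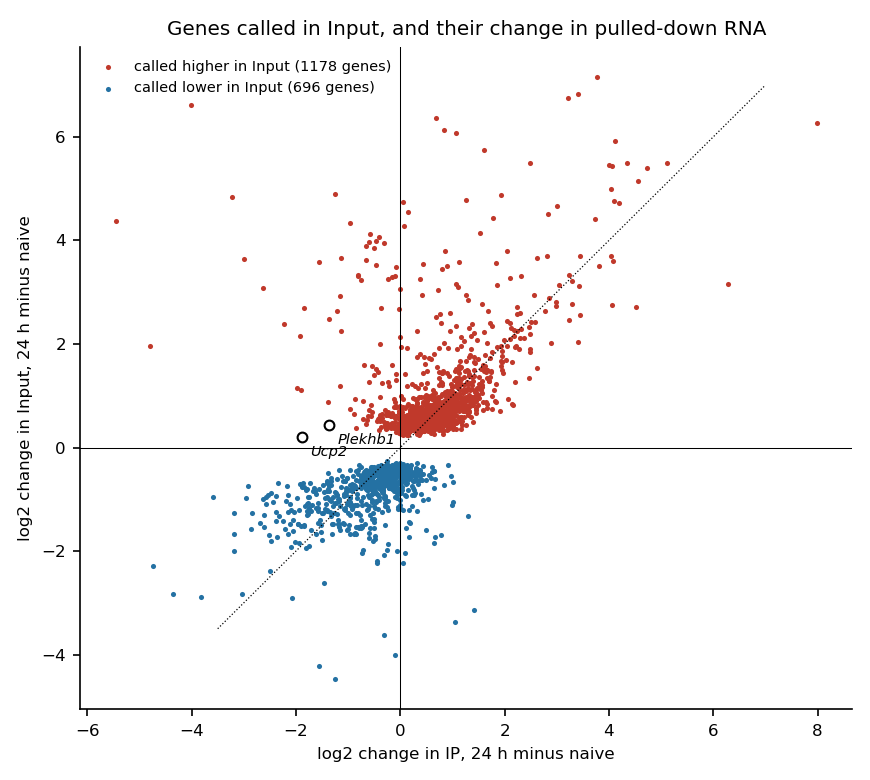
Log2 change, 24 h minus naive, of the 1874 genes called in Input, in IP (x axis, from the fit of 79 libraries) and in Input (y axis, from the fit of 40 libraries), with red for the 1178 higher and blue for the 696 lower; the dotted line marks equal changes. The open circles are Ucp2 and Plekhb1, at -1.89 and -1.36 in IP and at 0.20 and 0.43 in Input.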

How the data were processed

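The deposited gene table holds whole read counts, not normalized, for 79 libraries and RefSeq symbols. The kits were SMART-Seq v4 and Nextera XT, with paired-end reads, per the labels' protocols. The submitters' processing notes name bcl2fastq 2.17, STAR, HTSeq, GRCm38 and mm10. No source used here gives strandedness or the handling of multi-mapping reads, so antisense, overlapping and near-identical genes can share reads. The deposited table of repeat intervals was not used here. Some genes that the rule for named genes chose are not reported here.

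Of 24060 symbols, 27 that a spreadsheet had turned into dates (0.123% to 0.214% of the counts of the 24 h and naive libraries) were left out. The 40 Input libraries, with depths in the report, were fitted in edgeR 4.0.16 under R 4.3.3 with 7 groups (TMM, filterByExpr, robust quasi-likelihood test), and the Input and IP responses in a fit of 79 libraries in 14 groups. P-values were adjusted by Benjamini-Hochberg across every gene tested, and errors of log2 changes are standard errors from the F statistic. The labels state no pairing, so the main fit had none. Deviations of same-numbered 24 h and naive libraries from their group means had r between -0.25 and 0.27 (5 pairs). So few pairs cannot exclude a shared day or batch. Alternatives were other scaling (RLE), other filters, DESeq2 1.42.0, limma 3.58.1 voom, fewer libraries, a replicate block, and covariates for sex-linked genes, ribosomal share and marker levels.

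Named genes were the 15 of largest rise and fall that passed, reached 5 CPM, did not overlap and kept their sign at 72 h, up to 6 of smallest adjusted p per list, and up to 6 per direction in the other comparisons. Of 108 genes with values besides Xist, 15 lie outside this rule and were chosen after their values were seen: Smad1, Klf6, Myc, Stat3, Cckbr, Gap43, Stmn2, Fst, Nts, Grp, Csf1, Lrg1, Atf4, Uchl1 and Fabp7. The 36 lists, whose members overlap, and the comparisons were chosen with earlier results of these data known. Intervals and floors cover counting error only.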

Additional observations from a re-analysis of the deposited data

Results flagged for a closer look

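Among 216 groups of library values tested for a library far from the rest of its group, 10 were marked, and chance alone marks about 1 in 20. In naive Input, Cckbr was at 0.116 CPM in replicate 1 and at 0 in the others, and Ecel1 was at 1.85 CPM in replicate 6, against 0.0580 to 0.426 CPM. Nts was at 36.2 CPM in naive replicate 6, against 4.68 to 10.6 CPM in the others, and Ccl7 at 18.1 CPM in naive replicate 5, against 6.21 to 9.79 CPM. In 24 h Input, replicate 1 was high for Itga7 (238 CPM, others 149 to 170.4), Serpina3n (190.5 CPM, others 105 to 113) and Hspa5 (257 CPM, others 141.0 to 158). Replicate 3 at 24 h was high for Scn9a (108 CPM, others 94.2 to 97.3) and low for Ttc38 (6.49 CPM, others 9.97 to 11.1). Igfbp6 was at 83.1 CPM in 24 h replicate 5, against 59.3 to 63.7 CPM in the others.

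The 24 h response differed between Input and IP for Ucp2, with a log2 difference of 2.09, and for Plekhb1, with 1.79, by the interaction term of the edgeR fit. Neither call held without 24 h replicate 2 or 4 of both fractions together.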

How the results depend on the processing

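The count of 1874 genes called between 24 h and naive Input was 1205 (752 higher, 453 lower) with only these 12 libraries fitted and 1055 (662 and 393) with macrophage and fibroblast levels as covariates. It ran between 1530 and 2496 under the other settings, apart from those that left out a single library, given below. DESeq2 called 2246 and limma voom 1728. The cause of these shifts was not tested. The first of these fits has fewer libraries and also tested fewer genes, 14596 against 16217. Leaving out single libraries gave 1487 to 2320 genes, 997 to 1425 higher and 490 to 895 lower. For 24 h against 12 h it gave 483 to 1013, 324 to 566 higher and 143 to 447 lower. With the sex score as a covariate 360 genes, 259 higher and 101 lower, were called for 24 h against 12 h, where the count without it was 748; the cause was not tested. For the Input and IP responses, leaving out a 24 h replicate number in both fractions together gave 0 to 56, 0 to 52 higher and 0 to 4 lower in Input; no naive library was left out there. The replicate number as a block gave 1682 calls for 24 h against naive, and 0 of 5 same-numbered pairs correlated best with their own number. With time and number as a replicate block, Ucp2 differed by 2.21 and Plekhb1 by 1.75. Of 2699 recomputed values of named genes, 2636 kept direction and side of the threshold, 53 lost the call, 9 gained it and 1 turned: Calca, called under neither setting, was at -0.000885 with the marker covariates. Depth limits genes such as Crh and Grp, with few or no naive counts.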
